A study of Mus musculus with 24 samples.

Results

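The collagen genes of the mouse array were described across liver and white adipose tissue, 2 genotypes and 2 times of day. A gene was taken as a collagen where a non-control probe carried a name made of Col, a type number, the letter a and a chain number. This rule gave 43 genes with 68 probes, of 34844 gene names and 55681 probes in all, and each gene was read from its brightest probe. Of the 43 chosen probes 39 carried a RefSeq accession, and all 39 matched the same gene symbol.

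The mice carried human PER1, a circadian clock gene, either in the S714 form (called control here) or in the S714G form, a serine to glycine change (called mutant). Controls and mutants thus shared the human transgene and differed in its variant, and the promoter that drives it is not given in the sources used here. All mice were male C57BL/6 of 2 months, kept for 10 days on light-dark cycles. Liver and white adipose tissue were collected at ZT1 or ZT13, hours counted from lights on, with 3 arrays in each of the 8 groups. The labels call the 3 samples independent repeats without stating that each is another animal, so the p-values measure the spread between these samples.

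Collagens are proteins whose chains wind into a triple helix, which needs glycine at regular steps along each chain. Fibrillar collagens bear the tensile strength of tissue, collagen IV forms the sheet of basement membranes, and collagen VI forms beaded filaments around cells, prominently around adipocytes. Fibril-associated collagens (FACIT) decorate fibrils, multiplexins such as Col15a1 and Col18a1 sit at basement membranes and release anti-angiogenic fragments, and in liver most fibrillar collagen comes from stellate cells and portal fibroblasts.

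The 60-base probes show what was measured, since a few lie in the coding sequence of the helix itself. In such a probe the first letters of a glycine codon, GG, recur every 9 bases. Runs of at least 4 such codons were present in 52 of 55681 probes (0.0934%), and 4 of them named collagens. They are printed 5′ to 3′ as the scanner files give them, with the GG of each codon in the run in capitals.
Col14a1, the chosen probe, mm9 chr15:55347733-55347792 on the plus strand: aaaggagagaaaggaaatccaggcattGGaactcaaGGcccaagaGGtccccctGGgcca
Col25a1, the chosen probe, mm9 chr3:130270497-130270556 on the plus strand: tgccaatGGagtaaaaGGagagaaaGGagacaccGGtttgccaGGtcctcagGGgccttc
Col15a1, the dimmest of its 3 probes, mm9 chr4:47283786-47283845 on the plus strand: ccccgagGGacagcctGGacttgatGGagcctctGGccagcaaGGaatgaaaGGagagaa
Col16a1, number 3 by brightness of its 4 probes, mm9 chr4:129756457-129756516 on the plus strand: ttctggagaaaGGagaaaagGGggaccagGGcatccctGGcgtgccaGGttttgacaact

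Col4a1 and Col4a2 encode chains that wind together in collagen IV, and their genes lie head to head. In RefSeq on GRCm38.p6 their annotated starts are 21 bases apart on chromosome 8, on opposite strands. The windows from 250 bases before to 50 bases after each start share 78 bases, printed in capitals, each window 5′ to 3′ on its own gene's strand.
Col4a1, chr8:11312777-11313076 on the minus strand: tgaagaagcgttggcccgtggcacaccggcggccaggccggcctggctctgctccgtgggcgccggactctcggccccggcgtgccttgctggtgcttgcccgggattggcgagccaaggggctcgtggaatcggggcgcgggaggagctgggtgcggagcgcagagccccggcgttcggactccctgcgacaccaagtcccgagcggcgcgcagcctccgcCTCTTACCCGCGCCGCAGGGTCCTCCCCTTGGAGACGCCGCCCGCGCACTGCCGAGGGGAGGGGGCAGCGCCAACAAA
Col4a2, chr8:11312555-11312854 on the plus strand: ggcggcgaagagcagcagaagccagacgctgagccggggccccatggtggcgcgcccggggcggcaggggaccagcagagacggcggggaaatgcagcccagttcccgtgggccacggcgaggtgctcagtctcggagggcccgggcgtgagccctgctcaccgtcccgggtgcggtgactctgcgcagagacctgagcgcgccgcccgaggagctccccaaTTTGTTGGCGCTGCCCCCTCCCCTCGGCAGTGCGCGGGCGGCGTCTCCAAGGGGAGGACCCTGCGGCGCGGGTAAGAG

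The GC content of these windows was 74.0% and 73.7%, against a median of 52.7% over the 32851 windows of the RefSeq table. Windows were on hand for 35 of the 43 collagen genes, 38 windows in all. The E-box CACGTG, to which the CLOCK and BMAL1 pair binds, was in 0 of the 38 on either strand and in 7.15% of all windows. The D-box TTATGTAA was likewise in 0, against 0.938% of all. GGGCGG was in 23 of the 38 (60.5%) and in 35.7% of all, and CCAAT in 13 (34.2%) and in 37.4% of all, and both were present for Col4a1 and for Col4a2. TATAAA was in 5 of the 38 (13.2%) and in 13.6% of all, and the 5 belonged to Col3a1, Col10a1, Col11a2, Col13a1 and Col17a1. A missing match says only that these letters are not in this window.

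Levels are log2 of the scanner's processed signal minus the 75th percentile of the same array, called relative level below, so 0 is the signal of that percentile. Between 45.5% and 71.2% of the spots of an array were well above background, and that 75th percentile ranged from 376 to 1808 intensity units. Of the defining markers, Adipoq stood at 6.80 to 7.56 in the adipose arrays and 0.53 to 1.76 in the liver arrays, and Lep, the leptin gene, was well above background on 0 of 12 liver arrays. Alb, the albumin gene, stood at 7.27 to 8.74 in liver and spread from -1.66 to 7.02 in adipose tissue. Msln and Upk3b of mesothelium and Acta1 of skeletal muscle were well above background on all 12 adipose arrays. In liver Msln and Upk3b were so on 12 arrays and Acta1 on 9, each at levels below all adipose arrays. Of the 5 skeletal muscle markers, 2 were well above background on all 3 arrays of each adipose group. The part of these cell types in the collagen values was not tested. In whole tissue samples such as these, fewer cells of a type and less RNA per cell cannot be told apart.

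The 24 arrays lay on 3 slides of 8, and the slides cut across the design unevenly. All control arrays of ZT1, in both tissues, were on slide 1, together with replicates 1 and 2 of adipose mutant ZT1. Slide 2 held liver mutant ZT1, adipose control ZT13, replicate 3 of adipose mutant ZT1 and replicate 1 of liver control ZT13. Slide 3 held both mutant groups of ZT13 and replicates 2 and 3 of liver control ZT13. Tissues can therefore be compared within slides 1 and 3, genotypes in liver at ZT13 within slide 3, and genotypes in adipose tissue at ZT1 within slide 1. For liver at ZT1, genotype and slide cannot be told apart without a model over the other groups.

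Most collagens were measurable, and more of them in adipose tissue than in liver. A probe was tested if some group had it well above background in all of its 3 arrays, which held for 28 of the 43 in liver and for 35 in adipose tissue. On all 12 arrays of the tissue, 19 collagens were well above background in liver and 27 in adipose tissue. The cartilage collagens Col2a1, Col9a3 and Col11a1 and the transmembrane Col13a1 were well above background on no array of either tissue. Col10a1, of growth plate cartilage, Col17a1, of skin anchoring complexes, and Col28a1 were so on no liver array but on 1, 3 and 10 adipose arrays. Col19a1 and Col24a1 were above background on scattered arrays only and were not tested.

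White adipose tissue had higher relative levels of most collagens than liver. Over the average of the 4 genotype and time groups, 25 collagens were higher in adipose tissue, 4 were higher in liver and 6 did not pass the adjusted p threshold of 0.05 (limma with Benjamini-Hochberg adjustment over all 24306 genes tested). The background is high, since 75.4% of all genes tested passed, 33.5% as higher and 41.9% as lower in adipose tissue. The median difference, adipose minus liver, was 1.81 on the log2 scale over the 35 tested collagens and -0.14 over all genes tested. Members that were dim in liver entered this test through adipose tissue, so the count leans toward adipose tissue. Of the 19 collagens well above background on every array of both tissues, 17 were called, 13 higher in adipose tissue and 4 higher in liver. With that filter 77.0% of all genes were called, and 35.1% of those called were higher in adipose tissue.

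**Figure D1:**
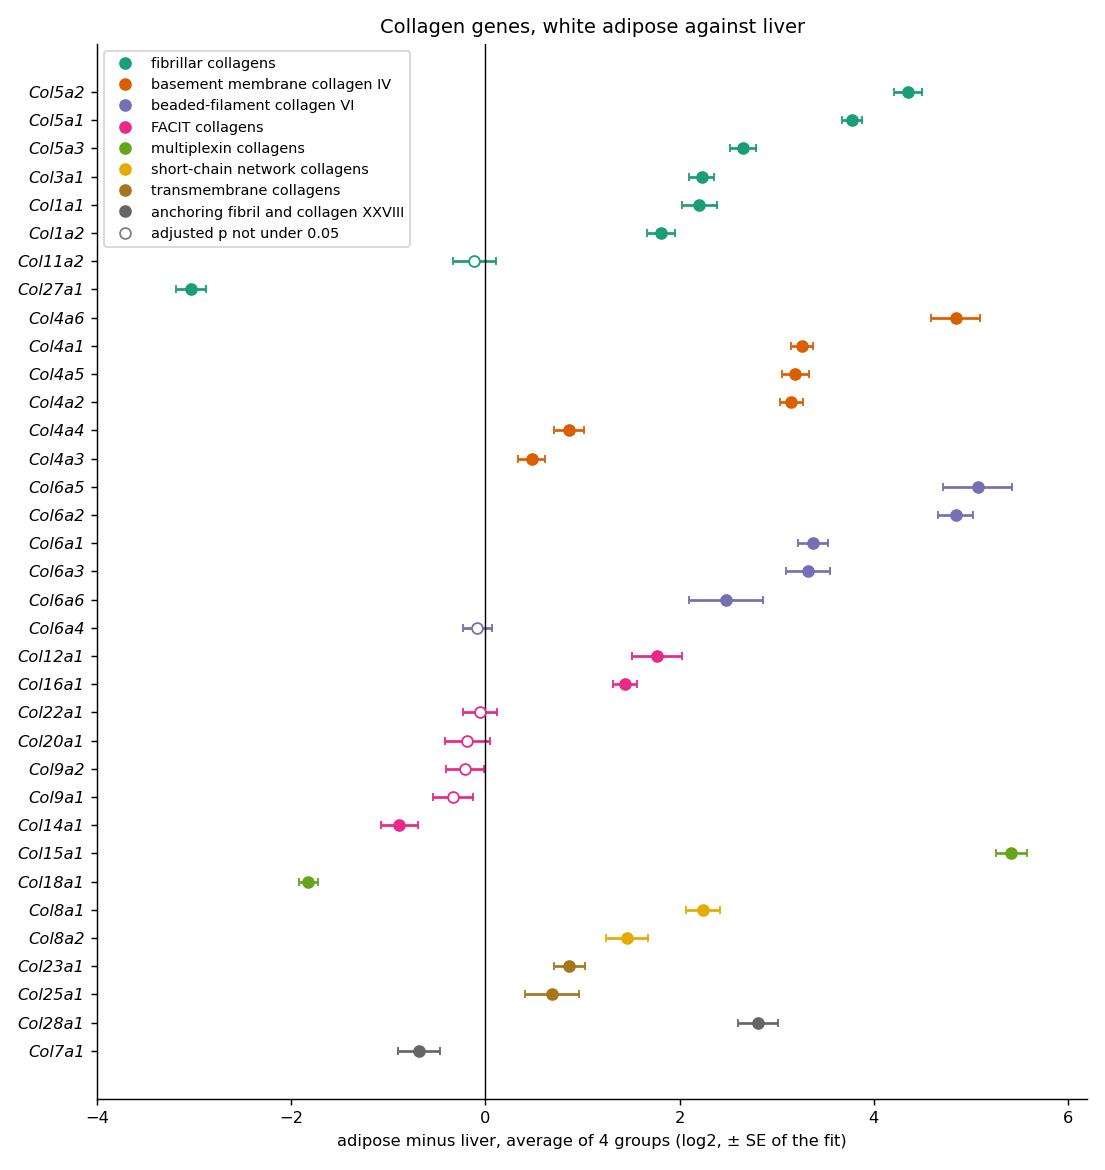
Difference between white adipose tissue and liver for the 35 tested collagens, as log2 of adipose minus liver averaged over the 4 genotype and time groups, with the SE of the fit over 24 arrays as bars; colours are structural classes and open circles mark an adjusted p not under 0.05. Values run from -3.03 for Col27a1 to 5.42 for Col15a1, with collagens IV and VI almost all to the right of 0.

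Of the fibrillar collagens, 6 of 8 tested were higher in adipose tissue. Col1a1, the major chain of collagen I, had a relative level of 2.13 to 3.97 over the 12 liver arrays (median 3.26) and of 4.84 to 6.27 over the 12 adipose arrays (median 5.25). Col1a2, its partner chain, lay at 3.68 to 4.89 in liver (median 4.29) and at 5.63 to 6.68 in adipose tissue (median 6.02). Col3a1, the collagen III chain of pliable tissue, lay at 3.34 to 4.67 in liver (median 4.16) and at 6.00 to 6.67 in adipose tissue (median 6.24). In each of the 3 the lowest adipose array was above the highest liver array. The differences were 2.20 ± 0.18 (SE of the fit over 24 arrays) for Col1a1, 1.81 ± 0.14 for Col1a2 and 2.23 ± 0.13 for Col3a1, with limma adjusted p of 8.55e-10, 3.68e-10 and 3.58e-12.

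Collagen V, which starts and limits the thickness of collagen I fibrils, differed more. Col5a1 was at -0.54 to 0.28 in liver (median -0.13) and 3.51 to 4.30 in adipose tissue (median 3.68), a difference of 3.77 ± 0.11, or 13.7-fold, with an adjusted p of 6.11e-17 in limma. Col5a2 was at -1.48 to -0.48 in adipose tissue (median -0.97) but well above background on only 1 of 12 liver arrays. In control mice at ZT1, where no liver array was above background, adipose tissue exceeded liver by at least 6.91-fold. Such a bound sets the adipose mean against the lowest signal that the scanner called well above background on each liver array, or the probe's own signal where higher. Col5a3 was at 0.54 to 2.72 in liver (median 1.88) and 3.51 to 5.20 in adipose tissue (median 4.81), a difference of 2.65 ± 0.14 with an adjusted p of 4.92e-13.

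Col27a1, a fibrillar collagen of cartilage, went the other way. Its relative level was -1.22 to 0.82 in liver (median -0.49) and -4.03 to -2.78 in adipose tissue (median -3.33), so the tissues did not overlap. Liver was 8.17-fold higher, with a difference of -3.03 ± 0.16 and a limma adjusted p of 5.42e-13. Col11a2, another cartilage collagen, did not pass (difference -0.12 ± 0.22, adjusted p = 0.648).

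Read from the brightest probe, all 6 collagen IV chains were higher in adipose tissue over the average of the groups. Col4a1 was at 0.22 to 1.63 in liver (median 1.25) and 3.39 to 4.88 in adipose tissue (median 4.58), and Col4a2 at 0.69 to 2.32 (median 1.99) and 4.34 to 5.38 (median 5.08). This head-to-head pair differed between tissues by 3.26 ± 0.11 and 3.15 ± 0.12 on the log2 scale, with limma adjusted p of 1.85e-15 and 8.02e-15. Col4a5 and Col4a6, neighbours on chromosome X whose chains build the collagen IV of smooth muscle, were at -1.30 to -0.31 and -1.64 to 0.00 in adipose tissue. Col4a5 was well above background on 8 of 12 liver arrays and had a fitted difference of 3.19 ± 0.14. Col4a6 was above background on 2 of 12 liver arrays, on none of control ZT1, where the bound was at least 4.39-fold. Col4a3 and Col4a4, the pair known from kidney glomeruli, differed less, by 0.47 ± 0.14 and 0.86 ± 0.15, and their ranges overlapped between tissues. Neither was called in control ZT1 or in mutant ZT13 alone. Of the 2 other probes of Col4a4, both called, only 1 had the same direction.

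Collagen VI was also mostly an adipose signal, in 5 of its 6 chains. Col6a1 was at 0.53 to 2.12 in liver (median 1.12) and 3.97 to 5.66 in adipose tissue (median 4.36). Col6a2 was at -3.11 to -1.72 in liver (median -2.21) and 1.88 to 3.86 in adipose tissue (median 2.46). Col6a3, whose C-terminal fragment endotrophin is released by adipocytes, was at -2.62 to 0.78 in liver (median -0.18) and 2.61 to 3.33 in adipose tissue (median 3.06). None of these 3 chains, which assemble with each other, overlapped between tissues, and they differed by 3.37 ± 0.16, 4.84 ± 0.18 and 3.32 ± 0.23 with limma adjusted p of 1.17e-13, 3.81e-15 and 5.7e-11. Among the later chains of chromosome 9, Col6a5 was above background on all 12 adipose arrays and 1 liver array, at least 9.01-fold higher in adipose tissue of control mice at ZT1. Col6a6, above background on 2 of 12 liver and 11 adipose arrays, was at least 3.37-fold higher in adipose tissue of mutants at ZT13, where no liver array was above background, and did not pass in control ZT1 (adjusted p = 0.346). Col6a4 stood near the same level in both tissues (-0.08 ± 0.15, adjusted p = 0.613).

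The multiplexins were split. Col15a1 was at 0.91 to 2.52 on the adipose arrays (median 1.44) and -5.74 to -3.04 on the liver arrays (median -3.66), where 7 of 12 were above background, 1 of 3 in each liver control group. The fitted difference was 5.42 ± 0.16 with a limma adjusted p of 1.2e-16, and no fold is given against readings partly at background. Col18a1, the precursor of endostatin and made by hepatocytes, was at 4.82 to 5.57 in liver (median 4.92) and 2.83 to 3.86 in adipose tissue (median 3.11). Liver was 3.54-fold higher (-1.82 ± 0.10, adjusted p = 1.45e-12), again without overlap.

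FACIT collagens showed no common direction. Col12a1 (1.77 ± 0.26, above background on 5 liver and 10 adipose arrays) and Col16a1 (1.44 ± 0.13) were higher in adipose tissue. Col14a1 was higher in liver on average (-0.89 ± 0.19), with -1.79 ± 0.38 in mutants at ZT13 and 0.04 ± 0.38 in controls at ZT1 (adjusted p = 0.935). The other 4 tested, Col9a1, Col9a2, Col20a1 and Col22a1, had differences of -0.33 to -0.06 and did not pass. Both tested network collagens of vessel walls, Col8a1 (2.24 ± 0.17) and Col8a2 (1.46 ± 0.22), were higher in adipose tissue, as was the transmembrane Col23a1 (0.86 ± 0.16), and Col8a1 was above background on 5 of 12 liver arrays. The transmembrane Col25a1, above background on 5 liver and 9 adipose arrays, had a difference of 0.69 ± 0.28 (adjusted p = 0.0336), with -0.08 ± 0.56 in mutants at ZT13, and its call was kept in 16 of 24 fits that left out 1 array (adjusted p up to 0.0699). Col28a1, above background on 0 of 12 liver arrays, was at least 1.60-fold higher in adipose tissue. Col7a1, of the skin's anchoring fibrils, was higher in liver (-0.69 ± 0.22) with overlapping ranges.

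**Figure D2:**
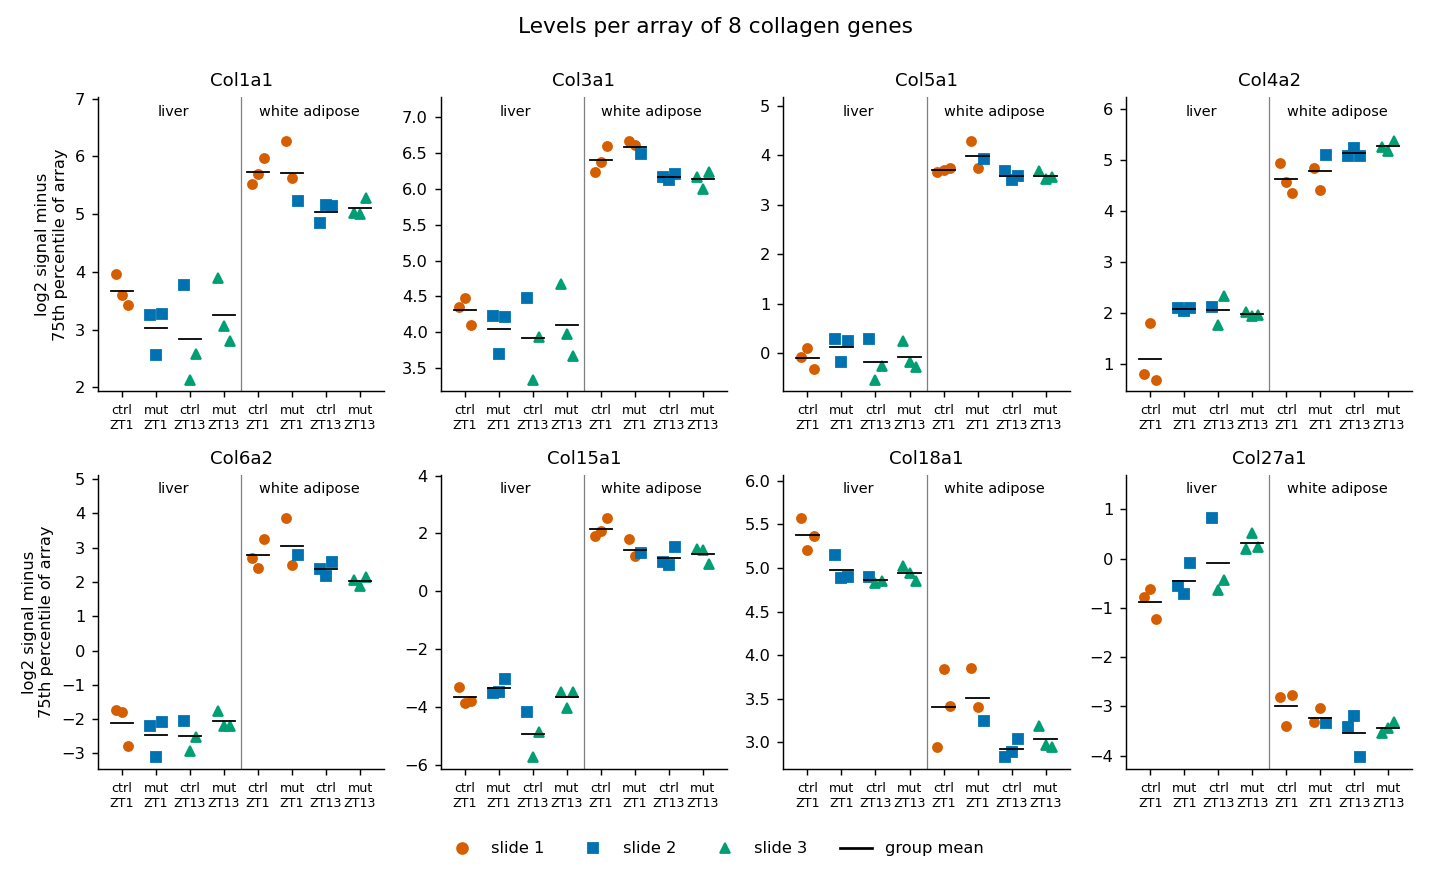
Relative level per array of 8 collagens, on the vertical axis as log2 signal minus the array's 75th percentile, in the 8 groups of tissue, genotype (ctrl, mut) and time; symbols give the slide and black bars the mean of 3 arrays. Col1a1, Col3a1, Col5a1, Col4a2, Col6a2 and Col15a1 sit higher in every adipose array than in any liver array, and Col18a1 and Col27a1 sit lower.

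The tissue pattern was also present among arrays of the same slide. In control mice at ZT1, all on slide 1, 22 collagens were called, 20 of them higher in adipose tissue. Of all genes tested, 48.6% were called there (22.1% higher, 26.5% lower). A fit within slide 1 called 21 of 28 tested collagens, 19 higher and 2 lower, beside 41.1% of all genes. In mutant mice at ZT13, all on slide 3, 24 were called, 21 of them higher in adipose tissue, beside 56.7% of all genes (25.5% higher, 31.2% lower). A fit within slide 3 called 27 of 35 tested collagens, 22 higher and 5 lower, beside 74.1% of all genes. That count was thus near the share of all genes. Col5a1 differed by 3.81 ± 0.21 and 3.66 ± 0.21 in these comparisons, and Col27a1 by -2.12 ± 0.31 and -3.76 ± 0.31. With quantile normalization the median of all genes rose from -0.14 to 0.04, and 28 collagens were called, 23 higher and 5 lower, beside 70.4% of all genes.

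Genes that fold, process, bind and degrade collagen also had more members higher in adipose tissue. The counts that follow stand beside 33.5% higher and 41.9% lower over all genes, and members dim in liver entered here too through adipose tissue. Of 20 folding and modification genes tested, 11 were higher and 6 lower, with Crtap, of the prolyl 3-hydroxylation complex, at 2.43 ± 0.08 and P4ha3, a prolyl 4-hydroxylase subunit, at -3.25 ± 0.10. Of 12 processing and crosslinking genes 9 were higher and 3 lower, led by the lysyl oxidases Lox (3.41 ± 0.09) and Loxl1 (3.94 ± 0.16). Of 11 genes of collagen breakdown and its inhibitors 10 were higher and 0 lower, with Timp4, an inhibitor of metalloproteinases, at 5.99 ± 0.08 and the fibroblast protease Fap at least 23.9-fold higher. Of 9 collagen receptors 7 were higher and 1 lower, Ddr2 by 3.70 ± 0.18 and Antxr1 by 3.08 ± 0.17.

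The laminin genes Lama4 (4.61 ± 0.10) and Lamc1 (3.91 ± 0.09) led the other matrix proteins, of which 15 of 17 were higher and 2 lower. In the TGF beta list 11 of 16 were higher and 3 lower, among them Tgfb3 (3.98 ± 0.17). Median differences of the 6 lists ran from 0.96 to 2.70, against -0.14 over all genes. Cell type lists moved as well, since 8 of 8 smooth muscle and pericyte markers, 7 of 9 endothelial markers and 6 of 6 mesothelial markers were higher in adipose tissue, as were 8 of 14 fibroblast and stellate markers with 6 lower. The mean level of the endothelial list was yet higher in liver in every genotype and time group. In control ZT1 its median over arrays was 1.03 in liver and 0.86 in adipose tissue. The macrophage list was likewise higher in liver in every group (1.65 and 1.21 in control ZT1). Lrat, a stellate cell marker, was above background on 12 liver and 2 adipose arrays. The part of cell composition in the collagen differences was not tested.

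In liver at ZT1 14 of 28 tested collagens differed between mutant and control, 4 higher and 10 lower in mutants, at a background of 45.3% of all genes tested (17.7% higher, 27.5% lower). The higher ones were Col5a3, Col4a1, Col4a2 and Col12a1. The lower ones were Col9a1, Col9a2, Col11a2, Col16a1, Col4a3, Col4a4, Col6a4, Col7a1, Col18a1 and Col22a1. The share of collagens called was thus near that of all genes, and the medians were -0.32 for the collagens and -0.17 for all genes. Control arrays were on slide 1 and mutant arrays on slide 2. With slide as a fixed or a random block over the 24 arrays 0 of the 28 were called, beside 0.304% and 0.535% of all genes.

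Col5a3 was at 0.70, 0.83 and 0.54 in liver control ZT1 and at 2.39, 2.62 and 2.72 in liver mutant ZT1. All 3 mutant arrays were above all 3 controls, a difference of 1.88 ± 0.20 (limma adjusted p = 8.35e-05), or 3.69-fold. With slide as a random block it was 1.28 ± 0.31 (adjusted p = 0.0779) and with slide as a fixed block 0.57 ± 0.31 (adjusted p = 0.631). In adipose mutant ZT1, a group split over slides, the slide 1 arrays were at 3.69 and 3.51 and the slide 2 array at 4.91.

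Col4a1 was at 0.41, 0.56 and 0.22 in liver control ZT1 and at 1.61, 1.45 and 1.63 in liver mutant ZT1. Col4a2, its neighbour across the shared window, was at 0.79, 1.79 and 0.69 in controls and at 2.09, 2.04 and 2.10 in mutants. Neither gene overlapped between genotypes, although the second control array of Col4a2 stood about 1 log2 unit above the other 2. Their differences were 1.16 ± 0.17 and 0.98 ± 0.26 (limma adjusted p of 0.000439 and 0.00999). With slide as a random block these were 0.75 ± 0.28 and 0.78 ± 0.33 and were not called (adjusted p of 0.274 and 0.334).

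Col9a1 and Col9a2, chains of the cartilage FACIT collagen IX, were lower in mutants. Col9a1 was at -2.79, -2.74 and -2.80 in controls and -3.69, -3.99 and -4.25 in mutants, where 2 of 3 arrays in each group were well above background. Col9a2 was at 0.98, -0.07 and 0.56 in controls and -0.66, -1.03 and -0.83 in mutants. Both were lower on every mutant array, by -1.20 ± 0.19 and -1.33 ± 0.25 (limma adjusted p of 0.000683 and 0.00189). A fixed block for slide turned the signs, to 0.997 ± 0.46 for Col9a1 and 0.63 ± 0.47 for Col9a2, neither of them called.

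Col11a2 went from -1.19, -1.99 and -1.77 in controls to -3.46, -3.18 and -2.58 in mutants (-1.42 ± 0.30, limma adjusted p = 0.00372). Col16a1, at 0.20, 0.33 and 0.28 in controls, was at -0.59, -0.26 and -0.32 in mutants (-0.66 ± 0.15, adjusted p = 0.0053). Col4a4 was at 0.35, -0.02 and 0.39 in controls and at -0.18, -0.58 and -0.59 in mutants (-0.69 ± 0.16, adjusted p = 0.00619). These 3 genes did not overlap between the genotypes. Col18a1 fell by 0.40 on the log2 scale, from 5.57, 5.21 and 5.37 to 5.15, 4.88 and 4.90 (adjusted p = 0.0364). The other 4 lower collagens, Col4a3, Col6a4, Col7a1 and Col22a1, had differences between -0.94 and -0.75. In the 6 fits that left out 1 array, Col18a1, Col4a3 and Col6a4 were each called in 2. Col22a1 was called in 5 of these fits and Col7a1 in all 6.

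The value of Col12a1, a FACIT collagen of tendon and fascia, rests on few readings. It was at -5.34 and -5.63 in liver control ZT1, where the spot of replicate 3 carried an outlier flag and was left out, and at -4.32, -4.04 and -4.47 in mutants. No measured control array and 1 mutant array were well above background, so no fold is given. The difference was 1.21 ± 0.25 (limma adjusted p = 0.00345) with the flagged spot left out, and -1.51 ± 1.63 in the deposited table, which keeps it.

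The main chains of the interstitial and microfibrillar matrix were not among the calls. Col1a1 had 3.97, 3.59 and 3.42 in controls and 3.25, 2.55 and 3.27 in mutants, a difference of -0.63 ± 0.41 (limma adjusted p = 0.216). Col1a2 (-0.22 ± 0.28), Col3a1 (-0.26 ± 0.31), Col5a1 (0.22 ± 0.23), Col6a1 (-0.54 ± 0.31), Col6a2 (-0.37 ± 0.35), Col6a3 (0.13 ± 0.56) and Col15a1 (0.31 ± 0.34) did not pass either. Col5a2 was not tested in liver.

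**Figure D3:**
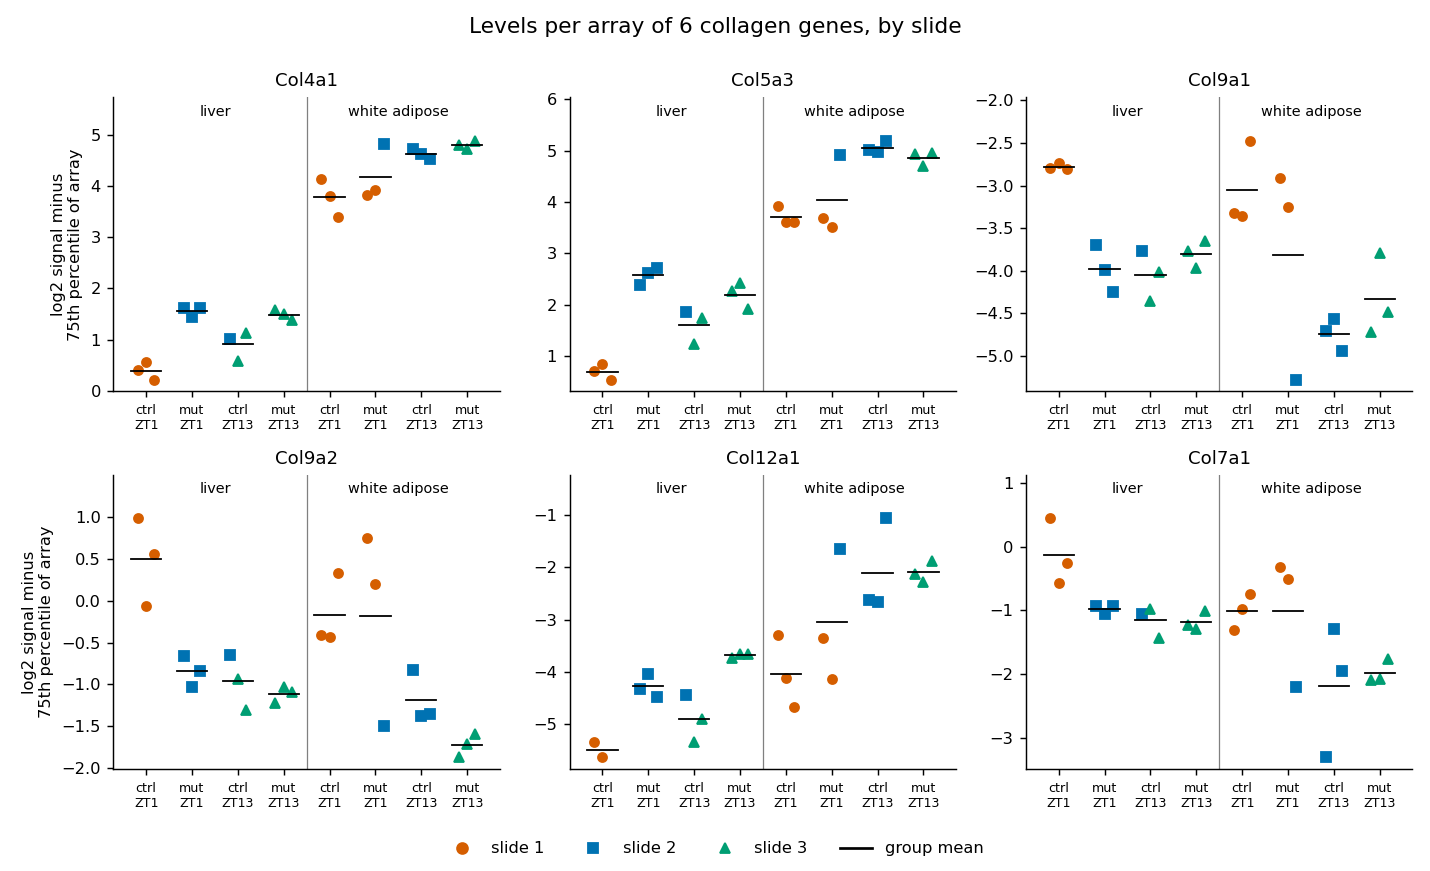
Relative level per array of 6 collagens, as log2 signal minus the array's 75th percentile, by tissue, genotype and time, with the slide of each array as symbol and colour and group means of 3 arrays (2 for Col12a1 in liver control ZT1) as bars. In adipose mutant ZT1 the slide 2 array departs from the slide 1 arrays, as at 4.91 against 3.69 and 3.51 for Col5a3 and at -5.28 against -2.91 and -3.25 for Col9a1.

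The group adipose mutant ZT1 allows a look at slides without a change of tissue, genotype or time. For all 14 collagens called in liver at ZT1, its slide 2 array differed from the mean of its 2 slide 1 arrays in the direction in which liver mutants on slide 2 differed from liver controls on slide 1. For 13 of the 14 that array lay outside the range of the 2 others, and Col4a3 was the exception. Over all genes called in liver at ZT1 with values there, 9172 of 9860 (93%) had the same direction. This rests on 1 array against 2 and was not tested.

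**Figure D4:**
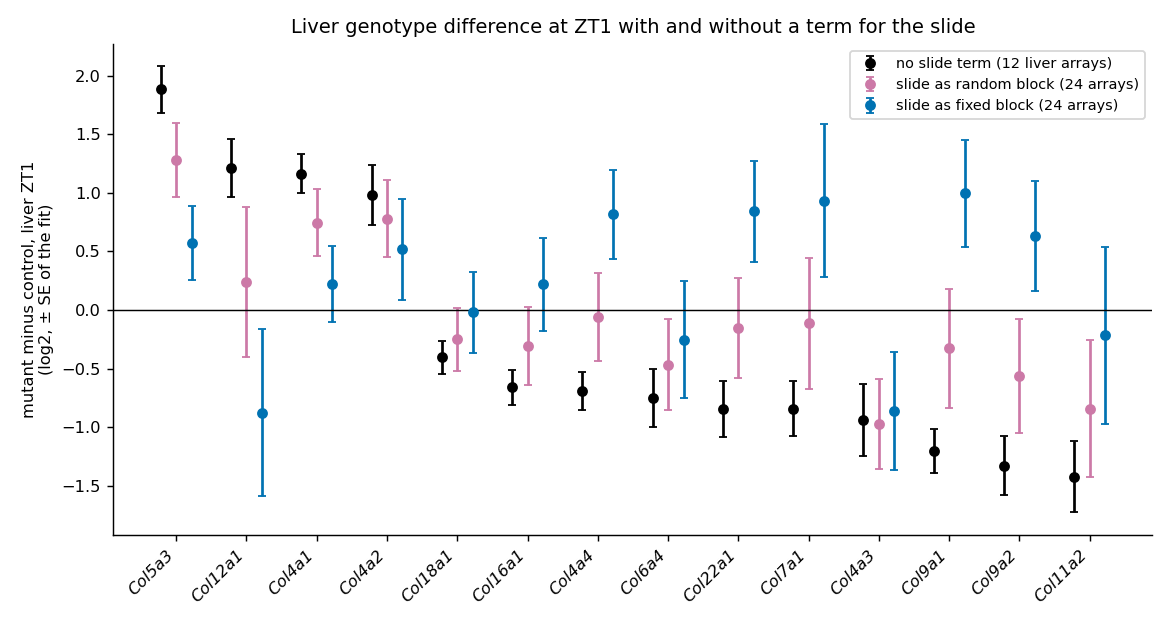
Mutant minus control in liver at ZT1, in log2 with the SE of the fit, for the 14 collagens called without a slide term (black), with slide as a random block (pink) and as a fixed block (blue) over 24 arrays. Col5a3 goes from 1.88 to 1.28 and 0.57, and Col9a1 from -1.20 to -0.33 and 0.997.

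The other collagen-related lists in liver at ZT1 had calls in both directions, beside 17.7% higher and 27.5% lower over all genes. Folding genes had 4 higher and 5 lower of 18 tested, with P4ha3 at 1.01 ± 0.20. Processing genes had 2 higher and 4 lower of 12, with Loxl4 at -3.47 ± 0.29. Breakdown genes had 2 higher and 1 lower of 7 with Timp4 at -1.14 ± 0.15, receptors 4 higher and 1 lower of 9 with Itga1 at 1.14 ± 0.13. Other matrix proteins had 1 higher and 3 lower of 17 with Postn at 1.98 ± 0.41, and the TGF beta list had 2 higher and 3 lower of 15 with Ltbp1 at 1.03 ± 0.24. Fibroblast and stellate markers had 2 higher and 4 lower of 14, and the slides were those of the collagen comparison.

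In liver at ZT13 1 of 28 tested collagens passed, beside 3.03% of all genes tested (1.51% higher, 1.52% lower). Col12a1 was at -4.43, -5.33 and -4.91 in controls, 1 array of which was well above background, and at -3.73, -3.66 and -3.65 in mutants, all 3 above background. Every mutant array was above every control, with a difference of 1.21 ± 0.22 (limma adjusted p = 0.0173), given without a fold since 2 of the 3 control arrays were not well above background. Within slide 3, 2 controls against 3 mutants, it was 1.44 ± 0.16 (adjusted p = 0.0174).

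This call was close to the threshold. Leaving out any 1 of liver control replicates 2 and 3 and liver mutant replicates 1, 2 and 3 gave an adjusted p of 0.0523 to 0.0741, and with the deposited table, where the flagged ZT1 spot adds to the estimated spread, the difference of 1.21 had an adjusted p of 0.842. Normexp background correction gave 0.34 ± 0.18 (adjusted p = 0.462). The call was also lost in limma without a filter on dim probes (adjusted p = 0.067) and with all 24 arrays (0.364). With slide as a fixed or random block the adjusted p was 0.0985 and 0.151.

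Of the 28 tested collagens, Col12a1 included, 20 had a positive difference, beside 11504 of 21814 genes. Col15a1 was at -4.18, -5.74 and -4.88 in controls and -3.47, -4.03 and -3.50 in mutants (1.27 ± 0.34, limma adjusted p = 0.0733), and within slide 3 it was 1.64 ± 0.31 (adjusted p = 0.049). Only 1 of its 3 control arrays was well above background, against all 3 mutant arrays. Col27a1 was at 0.82, -0.64 and -0.43 in controls and 0.20, 0.53 and 0.24 in mutants (0.41 ± 0.34), where the slide 2 control stood above all mutants, and within slide 3 it was 0.86 ± 0.16 (adjusted p = 0.0457). Col12a1, Col15a1 and Col27a1 were the collagens called within slide 3, beside 4.68% of all genes. Col4a1 had 1.01, 0.59 and 1.13 in controls and 1.57, 1.51 and 1.38 in mutants (0.58 ± 0.17, adjusted p = 0.0959).

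Col1a1 (0.43 ± 0.41), Col1a2 (0.26 ± 0.28), Col3a1 (0.19 ± 0.31), Col5a1 (0.10 ± 0.23), Col4a2 (-0.09 ± 0.26), Col6a1 (0.21 ± 0.31), Col6a2 (0.44 ± 0.35), Col6a3 (1.08 ± 0.56) and Col18a1 (0.08 ± 0.14) did not pass. For Col6a3 the second control array read -2.62 against -0.08 and -0.22 for the other 2. Among related genes at ZT13, Loxl4 was higher in mutants (3.57 ± 0.29), as was Nid2, a basement membrane linker (0.98 ± 0.22), and Tgfbr2, a TGF beta receptor, was lower (-1.01 ± 0.22). Of the 14 fibroblast and stellate markers 3 were higher and 0 lower, beside 1.51% higher and 1.52% lower over all genes. The part of stromal cell content in the Col12a1 difference was not tested.

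The genotype difference in liver changed with time for 7 of 28 tested collagens, beside 31.2% of all genes (18.3% positive, 12.9% negative), as mutant minus control at ZT13 less mutant minus control at ZT1. Col9a1 (1.45 ± 0.26), Col11a2 (1.33 ± 0.43), Col9a2 (1.18 ± 0.36), Col4a4 (0.76 ± 0.23) and Col16a1 (0.73 ± 0.21) had positive terms, and Col5a3 (-1.30 ± 0.28) and Col4a2 (-1.08 ± 0.36) negative ones. The limma adjusted p ranged from 0.0031 for Col9a1 to 0.0434 for Col4a2. Only Col9a1 and Col5a3 stayed called in all 12 fits that left out 1 array. At ZT13 Col5a3 was at 1.86, 1.24 and 1.73 in controls and at 2.26, 2.42 and 1.91 in mutants, and Col9a1 at -3.77, -4.36 and -4.02 in controls and -3.77, -3.97 and -3.65 in mutants. The ZT13 ranges of Col5a3 did not overlap and those of Col9a1 did. Liver control ZT1 was the only liver group on slide 1. With slide as a fixed or random block 0 were called, beside 1.04% and 1.76% of all genes.

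In white adipose tissue no collagen passed for genotype at either time. At ZT1 0 of 35 tested collagens passed, beside 0.00% of all genes tested (0 of 23360 with limma, and 1834 at an unadjusted p under 0.05, 2 of them collagens). At ZT13 0 of 35 passed, beside 0.0428% of all genes, 0.0171% higher and 0.0257% lower (10 of 23360, and 1122 at an unadjusted p under 0.05, 1 of them a collagen). The lowest p at ZT1 were those of Col15a1 (-0.72 ± 0.27, adjusted p = 0.559), Col4a6 (0.86 ± 0.36, adjusted p = 0.602) and Col12a1 (0.98 ± 0.61, adjusted p = 0.784). Col15a1 was at 1.92, 2.07 and 2.52 in adipose controls and 1.81, 1.20 and 1.32 in adipose mutants, lower on every mutant array.

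Within slide 1, with 3 controls and 2 mutants, 0 of 34 tested collagens passed, beside 0 of all genes, and Col15a1 was -0.66 ± 0.35. At ZT13 the lowest p was that of Col4a3, at -3.60, -3.16 and -3.59 in controls and -4.78, -4.22 and -4.18 in mutants (-0.94 ± 0.24, limma adjusted p = 0.406), followed by Col9a2 (-0.54 ± 0.47) and Col8a1 (-0.32 ± 0.31). Controls of ZT13 were on slide 2 and mutants on slide 3, which cannot be told apart from genotype there.

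The abundant chains were also among those that did not pass in adipose tissue, with the slide layout just described. Col1a1 was at 5.52, 5.69 and 5.97 in adipose control ZT1, at 6.27, 5.62 and 5.23 in mutant ZT1, at 4.84, 5.16 and 5.13 in control ZT13 and at 5.02, 4.999 and 5.27 in mutant ZT13. The genotypes overlapped at both times, with differences of -0.02 ± 0.27 and 0.05 ± 0.27. Col3a1 differed by 0.19 ± 0.18 and -0.03 ± 0.18, Col6a3 by 0.10 ± 0.22 and -0.03 ± 0.22, and Col4a2 by 0.17 ± 0.23 and 0.14 ± 0.23. Hepatocyte markers differed at ZT1 by a median of -3.48, with 0 of 8 called, and their part in the collagen values was not tested.

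**Figure D5:**
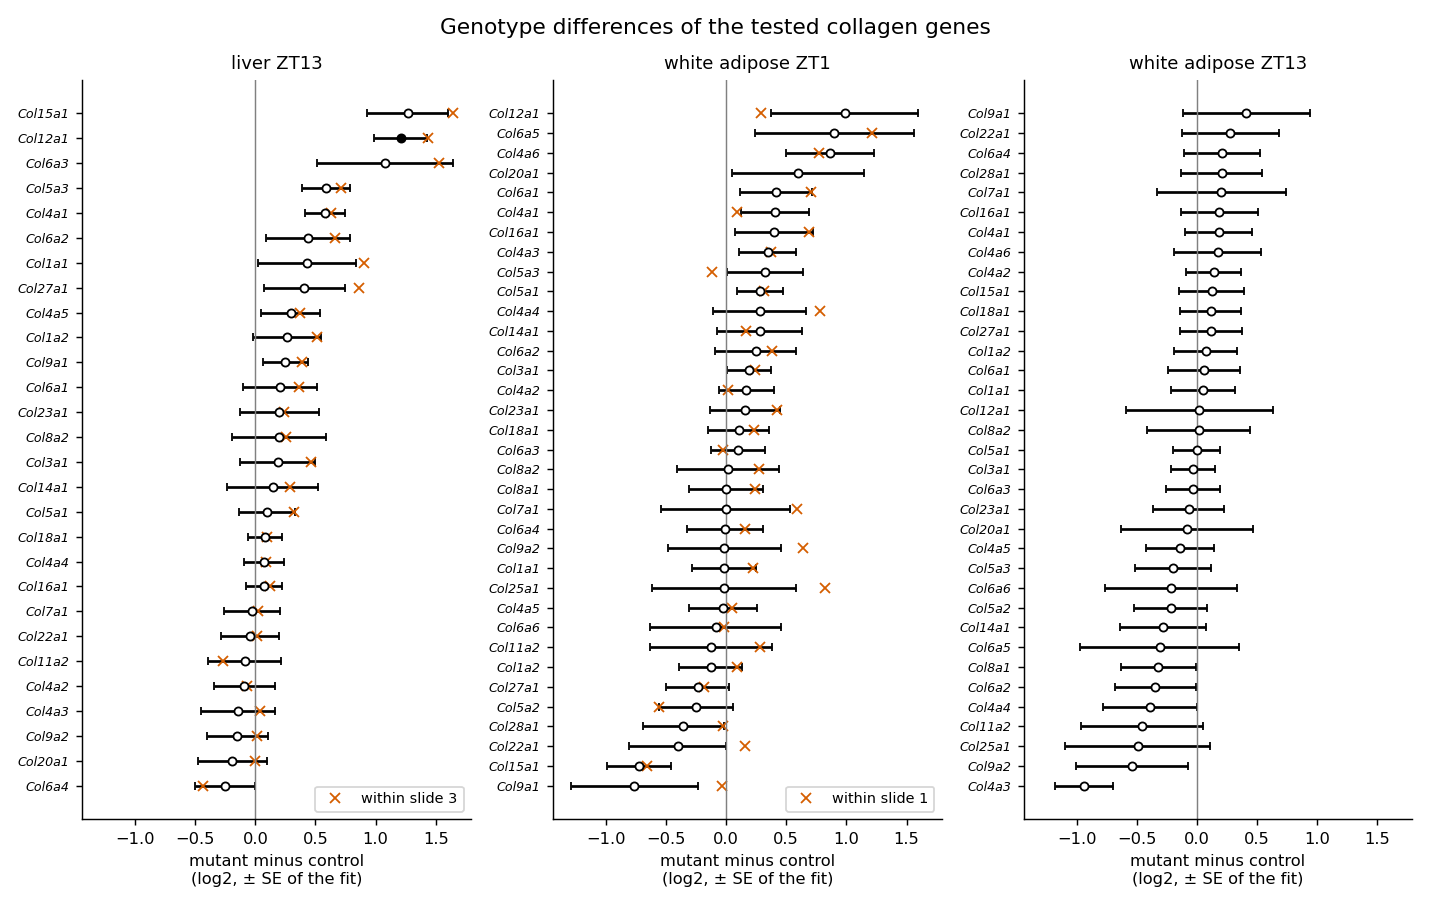
Mutant minus control in liver at ZT13 (28 collagens) and in white adipose tissue at ZT1 and ZT13 (35 each), in log2 with the SE of the fit as bars; the filled point is Col12a1, the collagen that passed, open points did not pass, and crosses give the fit within a slide. In liver at ZT13, Col12a1 is at 1.21 and at 1.44 within slide 3, and adipose differences at ZT13 run from -0.94 to 0.41.

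The genotype effect at ZT1 differed between tissues for 1 of 35 tested collagens, beside 1.41% of all genes (0.790% positive, 0.617% negative). Col5a3 had 0.32 ± 0.32 in adipose tissue and 1.88 ± 0.20 in liver, and the difference of these effects was -1.56 ± 0.38 (limma adjusted p = 0.0471). Without replicate 3 of adipose mutant ZT1, the slide 2 array, 12 collagens passed, and the share of all genes in that fit is not given here. In 9 of the 12 fits that left out 1 array 0 passed. With slide as a fixed or random block 0 passed, beside 0.272% and 0.329% of all genes. At ZT13 0 of 35 passed, beside 0.214% of all genes, 0.107% in each direction (52 of 24306 with limma), and 3 collagens had an unadjusted p under 0.05, Col15a1 (-1.14 ± 0.45, adjusted p = 0.593) having the lowest.

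Between ZT1 and ZT13, control liver had 12 of 28 collagens called, 3 higher and 9 lower at ZT13, beside 51.1% of all genes (21.2% higher, 29.9% lower). This comparison shares its ZT1 controls with the genotype comparison at ZT1 and sets slide 1 against slides 2 and 3. The largest falls were those of Col11a2 (-1.50 ± 0.30), Col9a2 (-1.45 ± 0.25), Col15a1 (-1.27 ± 0.34), Col9a1 (-1.27 ± 0.19) and Col7a1 (-1.03 ± 0.23). Col15a1 was well above background on only 1 of 3 control liver arrays at each time. Col4a2 (0.97 ± 0.26), Col5a3 (0.92 ± 0.20) and Col4a1 (0.51 ± 0.17) were higher at ZT13. With slide as a fixed block 0 were called, beside 0.683% of all genes. With a random block 1 was called, beside 5.24% of all genes, and it was Col5a2, which the fit over liver arrays did not test.

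In mutant liver, with ZT1 on slide 2 and ZT13 on slide 3, 0 of 28 collagens were called, beside 1.98% of all genes, 1.03% higher and 0.949% lower (432 of 21814 with limma), and 2 collagens had an unadjusted p under 0.05. Col12a1 (0.59 ± 0.22, adjusted p = 0.239) and Col27a1 (0.78 ± 0.34, adjusted p = 0.32), then Col5a3 (-0.38 ± 0.20, adjusted p = 0.432), had the lowest p. With slide as a fixed block Col27a1 was called, at 2.13 ± 0.43, beside 0.243% of all genes.

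In control adipose tissue 2 of 35 collagens were called between the times, beside 15.1% of all genes (6.22% higher, 8.90% lower). Col5a3 rose from 3.92, 3.60 and 3.62 to 5.02, 4.97 and 5.20 (1.35 ± 0.32, limma adjusted p = 0.0254). Col15a1 fell from 1.92, 2.07 and 2.52 to 1.02, 0.91 and 1.54 (-1.01 ± 0.27, adjusted p = 0.0337). ZT1 was on slide 1 and ZT13 on slide 2, which cannot be told apart from time there, and each of the calls was kept in 1 of 6 fits that left out an array. Among related genes Mmp9 (-3.99 ± 0.38), Itga11 (-1.77 ± 0.38), P4ha1 (-1.36 ± 0.29), Lox (-0.89 ± 0.21) and Fbn1 (-0.76 ± 0.21) fell.

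In mutant adipose tissue 0 of 35 were called, beside 1.98% of all genes, 0.411% higher and 1.57% lower (462 of 23360 with limma), and 15 collagens had an unadjusted p under 0.05. Col14a1 (-1.54 ± 0.35, adjusted p = 0.0515) and Col4a3 (-1.01 ± 0.24, adjusted p = 0.0565), then Col4a4 (-1.31 ± 0.39, adjusted p = 0.0938), came nearest. Without replicate 3 of mutant ZT1, which leaves slide 1 against slide 3, 19 collagens were called. The share of all genes called in that fit is not given here, so the 19 cannot be set beside the 1.98% of the full fit. The change with time differed between genotypes in adipose tissue for 0 of 35 collagens, beside 0.124% of all genes, 0.0514% positive and 0.0728% negative (29 of 23360 with limma), and 2 collagens had an unadjusted p under 0.05, Col4a3 (-1.29 ± 0.34, adjusted p = 0.349) having the lowest.

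Of the 18 collagens with more than 1 probe, several gave unlike values by probe. The brightest probe of Col15a1 and the next gave 5.42 and 5.55 for adipose minus liver, while the coding probe printed above gave 2.13. For Col16a1 the 3 tested probes gave 1.44, 2.01 and -0.15, and for Col4a4 0.86, -1.23 and 1.88. All 3 values of Col4a4 were called, so its direction depended on the probe. The coding probe of Col14a1 printed above differed between genotypes in liver at ZT1 by 0.76 and was not called, and its other probe differed by 2.35 and was. For Col18a1 the 2 probes gave -0.40 and 0.13 for that comparison and -1.82 and -2.37 between tissues.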

How the data were processed

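RNA labelled with Cy3 was hybridised to 24 Agilent mouse arrays of 62976 spots, 12 per tissue. The scanner files deposited by the authors give an intensity per spot, per the file headers from Agilent Feature Extraction 10.7.3.1, whose processed signal has background subtracted and no scaling between arrays, and flags for background, saturation and outlying pixels set by the authors' scanner software. The deposited table of the authors is on the log2 scale and equals log2 of each array's processed signal minus 1 constant per array (100% of probes within 0.01). Its column medians ran from -3.91 to -3.02, and the choice of that constant is not given in the sources used here. Probe coordinates come from the design columns of the scanner files, on mm9.

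Control spots and outlier-flagged spots (0.238% to 0.685% per array) were removed, the spots of each probe averaged, log2 taken and the array's 75th percentile subtracted. No spot was saturated. Probes with every array of some group well above background were fitted with limma 3.58.1 in R 4.3.3 (lmFit, eBayes, two-sided), with 4 groups per tissue over 12 arrays for genotype and time, and 8 groups over 24 arrays for tissue and for genotype by tissue. Adjusted p is Benjamini-Hochberg over all genes, threshold 0.05. The fits were run on simulated data with independent noise per array and no slide effect, so that check says nothing on comparisons between slides. The number of arrays limits the precision. The collagens, the other lists and the tests were chosen with earlier results of these data known.

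All collagens are accounted for by class. The rule asks for values per array for those passing in a genotype contrast or its interactions (up to 8 per contrast) and always for Col1a1, Col1a2, Col3a1, Col5a1, Col5a2, Col4a1, Col4a2, Col6a1, Col6a2, Col6a3, Col15a1 and Col18a1. In the text, ranges over the 12 arrays of a tissue or differences stand in their place for many of these. Other contrasts name up to 5 per direction, and where none passes the 3 of lowest p. Of other lists, passing members of lowest p are named, up to 4 per list. Genes described for a slide, a probe or a missing reading (Col6a3 and Col27a1 at ZT13, the probe pairs) were chosen after their values were seen.

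For same-numbered samples the correlation of their deviations exceeded 0.1 in 0 of 12 control and mutant pairs, 2 of 12 ZT1 and ZT13 pairs and 1 of 12 liver and adipose pairs. Differently numbered samples were not compared, and some deviations include slide differences, so this cannot tell whether samples share an animal. Alternatives were quantile normalization, normexp (offset 50), the deposited table, other filters on dim probes, the mean of a gene's probes, all 24 arrays, slide and replicate blocks, fits within slides, leaving out each array and leaving out 3 arrays whose titles carry another prefix.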

Additional observations from a re-analysis of the deposited data

Results flagged for a closer look

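The genotype difference changed between ZT1 and ZT13 in liver, by the interaction term of the fit, for Col9a1 (1.45), Col11a2 (1.33), Col9a2 (1.18), Col4a4 (0.76), Col16a1 (0.73), Col4a2 (-1.08) and Col5a3 (-1.30). Of 12 fits that left out 1 array, Col9a1 and Col5a3 were called in 12 and Col16a1 in 7. Col4a4 and Col9a2 were called in 6 of them, Col11a2 in 4 and Col4a2 in 2. Between tissues the genotype difference at ZT1 differed for Col5a3 (-1.56, adipose minus liver). Liver control ZT1, on slide 1, enters each of these 8 terms, and with slide as a fixed or random block none of them was called.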

How the results depend on the processing

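Counts are of collagens called by limma, and changes of under 1.5 times are given as ranges. A percentage in brackets is the share of all genes tested that were called in the same fit. The tissue average ranged from 28 with quantile normalization (70.4%) or the deposited table (75.2%) to 34 without a filter (63.3%). Of those 34, with 43 tested, 26 were higher and 8 lower. It was 30 (23 higher, 7 lower) with normexp (73.3%) or the fixed slide block (74.3%). It moved by more with probes required above background on every array, where 19 were tested, to 17 (77.0%). So did control ZT1, to 14 (50.3%), and mutant ZT13, to 14 (56.9%). Liver at ZT1 went from 14 to 8 with all 24 arrays (29.4%) and 9 with that filter (47.9%). With the fixed and the random slide block it was 0 (0.304% and 0.535%). Liver at ZT13 went from 1 to 0 with the deposited table (2.97%), no filter (0.781%), normexp (3.32%) or the stricter filter (4.02%). Within slide 3 it went to 3 (4.68%). With all 24 arrays (1.81%), the fixed slide block (2.50%) or the random one (2.18%) it stayed at 1, but the collagen called there was not Col12a1. Genotype by time in liver went from 7 to 3 with all 24 arrays, 4 without a filter, 11 with normexp and 0 with either slide block. For the genotype effect between tissues at ZT1 the count was 0 without a filter, with quantile normalization or with either slide block, and 13 without the 3 arrays of another title prefix. These are adipose mutant ZT1 replicates 2 and 3 and adipose control ZT13 replicate 2, so that fit leaves adipose mutant ZT1 with 1 array, assumed to vary like the other groups.

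Time in control liver gave 0 with a fixed (0.683%) and 1 with a random slide block (5.24%) instead of 12. In mutant liver it gave 1 with the fixed block (0.243%) instead of 0. Instead of 2, time in control adipose tissue gave 9 with all 24 arrays (33.7%) and 8 with normexp (24.2%). It gave 7 with quantile normalization (12.8%) and 5 with the stricter filter (19.9%). Of the 9, 3 were higher and 6 lower, of the 8, 2 were higher and 6 lower, and of the 7, 6 were higher and 1 lower. With the fixed and the random slide block it gave 0 (0.272% and 0.543%). Without the prefixed arrays the median was -0.47 over the collagens and -0.31 over all genes. In mutant adipose tissue it gave 6 with all 24 arrays, 2 with normexp, 1 with quantile normalization, 1 with the stricter filter and 20 without the prefixed arrays, instead of 0. Quantile normalization also moved the share of higher calls among all genes from 41.1% to 62.2% in control and from 20.8% to 35.1% in mutant adipose tissue over time. The cause was not tested.

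A replicate block, for numbers whose pairing the labels do not state, gave 2 in liver at ZT13, 1 for time in control adipose tissue and 0 for the genotype effect between tissues at ZT1. A block for a possibly shared animal also gave 0 for that effect.

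Leaving out each array gave 28 to 30 for the tissue average, 21 to 23 for control ZT1, 23 to 25 for mutant ZT13, 11 to 16 for liver at ZT1, 0 to 2 for liver at ZT13, 2 to 12 for genotype by time in liver, 10 to 16 for time in control liver, 0 to 3 for time in control adipose tissue, 0 to 19 for time in mutant adipose tissue and 0 to 12 for the genotype effect between tissues at ZT1. These counts stand without the share of all genes called in the same fits, so they do not set the collagens apart from other genes. Liver at ZT13 had 2 without control replicate 1 and 0 without any other array of its groups. The genotype effect between tissues at ZT1 had 12 without adipose mutant ZT1 replicate 3, 3 without liver control ZT1 replicate 2, and 0 without adipose control ZT1 replicate 1 or 2, adipose mutant ZT1 replicate 1 or 2, liver control ZT1 replicate 1 or 3 or any liver mutant ZT1 array. Genotype by time in liver had 12 without control ZT1 replicate 2, 3 without control ZT1 replicate 3, 2 without control ZT13 replicate 3, 4, 3 and 4 without mutant ZT1 replicates 1, 2 and 3, and 3 without mutant ZT13 replicate 1 or 2. Time in control adipose tissue had 0 without control ZT1 replicate 2 or 3 or any control ZT13 array, and time in mutant adipose tissue had 1 without mutant ZT1 replicate 2 and 19 without replicate 3.

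With slide as a fixed block signs turned. In liver at ZT1 Col12a1 became -0.88, Col16a1 0.22, Col22a1 0.84, Col4a4 0.82, Col7a1 0.93, Col9a1 0.997, Col9a2 0.63, Ltbp1 -0.32 and Postn -0.32. Over time in control liver Col16a1 became 0.38, Col22a1 1.07, Col4a1 -0.33, Col4a4 0.90, Col5a3 -0.14, Col7a1 0.85, Col9a1 1.21 and Col9a2 0.83. For genotype by time Col11a2 became -0.056, Col16a1 -0.10, Col4a4 -0.73, Col5a3 0.14, Col9a1 -0.61 and Col9a2 -0.62. Col12a1 in liver at ZT1 was also -1.51 in the deposited table and -0.057 with normexp. Dim probes are limited by signal over background, as for Col12a1.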
